A study of Homo sapiens with 8 samples.

Results

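The 9 genes described here serve the presentation of peptides by MHC class I molecules or encode PD-L1. They form a list of names, drawn up with earlier results of these data known: the class I heavy chains *HLA-B*, *HLA-C* and *HLA-E*, their partner *B2M*, the peptide-loading genes *TAP1*, *TAP2* and *TAPBP*, the class I transactivator *NLRC5*, and *CD274*, which encodes PD-L1. All 9 were found among the 57815 gene identifiers of the RNA-seq tables. The libraries came from 2 established lung adenocarcinoma lines, ABC1 and HCC4006, with *KEAP1* and *NRF2* unmutated, and the cells had received 100 μM DEM or the vehicle DMSO for 16 h. DEM is an electrophile that inhibits KEAP1, the protein that keeps the transcription factor NRF2 low (the record's title calls it dimethylmaleate, the study's methods diethyl maleate). Each of the 4 groups held 2 libraries, numbered 0 and 1 and described by the study as biological duplicates, and each line stands for 1 tumour only, so a difference between the lines cannot be told apart from a difference between 2 individual tumours. The question of the treatment was which genes respond when NRF2 is transiently induced in cells with an intact KEAP1-NRF2 system.

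A class I molecule is a heavy chain bound to β2-microglobulin (B2M) and to a short peptide. The proteasome makes such peptides in the cytosol, the transporter of TAP1 and TAP2 carries them into the endoplasmic reticulum, and tapasin (TAPBP) holds the empty heavy chain at the transporter until a peptide is loaded. HLA-B and HLA-C present peptides to CD8 T cells and engage receptors of natural killer cells, whereas HLA-E mostly presents leader peptides of other class I chains to natural killer cells. NLRC5 is a transactivator of class I genes that works with the RFX, CREB/ATF and NF-Y factors bound at a shared promoter module, and interferon-γ raises the whole group, in part through the transcription factor IRF1. PD-L1, which inhibits T cells through PD-1, is induced by the same interferon route.

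The promoters of *HLA-B*, *HLA-C*, *B2M*, *TAP1* and *CD274* are printed here to show where letters of the shared module and of interferon elements occur in them. RefSeq promoters (GRCh38.p14) were matched for 7 of the 9 genes, with a pair of starts for *TAP1*, and the 250 bases before the start are given 5′ to 3′ on the coding strand. Capitals mark matches on either strand to the interferon-stimulated response element core TTTCNNTTT, the κB core GGGATTCC, the CRE-like TGACG or the Y box CCAAT, and matches that overlap run together.
*HLA-B* (chr6:31357180-31357429, minus strand): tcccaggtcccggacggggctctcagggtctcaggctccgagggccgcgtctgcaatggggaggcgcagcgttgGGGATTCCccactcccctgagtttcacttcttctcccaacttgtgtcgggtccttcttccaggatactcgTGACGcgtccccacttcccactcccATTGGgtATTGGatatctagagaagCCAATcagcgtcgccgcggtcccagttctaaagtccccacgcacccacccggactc
*HLA-C* (chr6:31272093-31272342, minus strand): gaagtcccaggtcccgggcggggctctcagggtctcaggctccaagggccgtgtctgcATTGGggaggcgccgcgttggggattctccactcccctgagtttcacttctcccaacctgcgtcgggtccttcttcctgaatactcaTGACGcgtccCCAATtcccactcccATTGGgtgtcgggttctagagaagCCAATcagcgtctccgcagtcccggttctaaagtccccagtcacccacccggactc
*B2M* (chr15:44711267-44711516, plus strand): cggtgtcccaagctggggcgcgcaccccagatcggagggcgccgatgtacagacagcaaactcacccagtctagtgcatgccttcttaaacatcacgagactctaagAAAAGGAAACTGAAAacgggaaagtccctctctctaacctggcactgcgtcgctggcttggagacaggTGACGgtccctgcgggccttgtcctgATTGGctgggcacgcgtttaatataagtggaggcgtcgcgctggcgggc
*TAP1*, upstream start (chr6:32853705-32853954, minus strand): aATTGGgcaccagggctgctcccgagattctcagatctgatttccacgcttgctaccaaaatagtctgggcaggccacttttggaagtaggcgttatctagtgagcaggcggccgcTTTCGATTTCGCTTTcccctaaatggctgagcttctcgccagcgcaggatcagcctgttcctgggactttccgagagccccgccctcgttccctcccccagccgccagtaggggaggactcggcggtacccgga
*CD274* (chr9:5450292-5450541, plus strand): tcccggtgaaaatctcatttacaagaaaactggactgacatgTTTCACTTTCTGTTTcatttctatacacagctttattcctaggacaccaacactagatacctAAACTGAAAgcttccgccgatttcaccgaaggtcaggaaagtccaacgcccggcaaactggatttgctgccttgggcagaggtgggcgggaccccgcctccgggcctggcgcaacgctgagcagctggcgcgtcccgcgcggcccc

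TGACG and CCAAT are letters of the module that NLRC5 uses, but which CCAAT match is part of it was not tested. In *HLA-B* the window held 1 TGACG, which began 106 bases before the start, and 3 CCAAT matches. These stood at -81 and -74 on the other strand and at -56 on the coding strand. *HLA-C* held 1 TGACG at -105 and 4 CCAAT matches, at -192 and -80 on the other strand and at -95 and -56 on the coding strand. Over the 250 bases the promoters of *HLA-B* and *HLA-C* were 89.0% identical. The κB core was found at -176 in *HLA-B* and had no exact match in *HLA-C*. The κB core occurs in 1.12% of the 35116 promoters of the same length.

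Exact matches to the interferon-type letters stood elsewhere in the group. *B2M* had 2 overlapping TTTCNNTTT matches from -143, 1 TGACG at -75 and 1 CCAAT at -49. *TAP1* had 2 overlapping TTTCNNTTT matches from -134 of its upstream start, and *CD274* had 3 in its window, of which 2 overlap from -208. *TAP2* had 1 TTTCNNTTT match and *TAPBP* had 2, whereas neither *HLA-B* nor *HLA-C* had one in these letters. Only exact matches were counted, so an element that departs from these letters by a base would be missed. The interferon-γ-activated site TTCNNNGAA was matched at -125 in *CD274* and at -189 of the downstream *TAP1* start. The antioxidant response element core TGACNNNGC, which NRF2 binds with small MAF proteins, had 0 matches in the windows of the 7 genes, including the 50 bases after the start. Of all promoters, 10.5% hold TTTCNNTTT, 7.66% TTCNNNGAA, 24.6% TGACG, 34.6% CCAAT and 13.3% TGACNNNGC. A match describes letters and not a bound site.

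**Figure D1:**
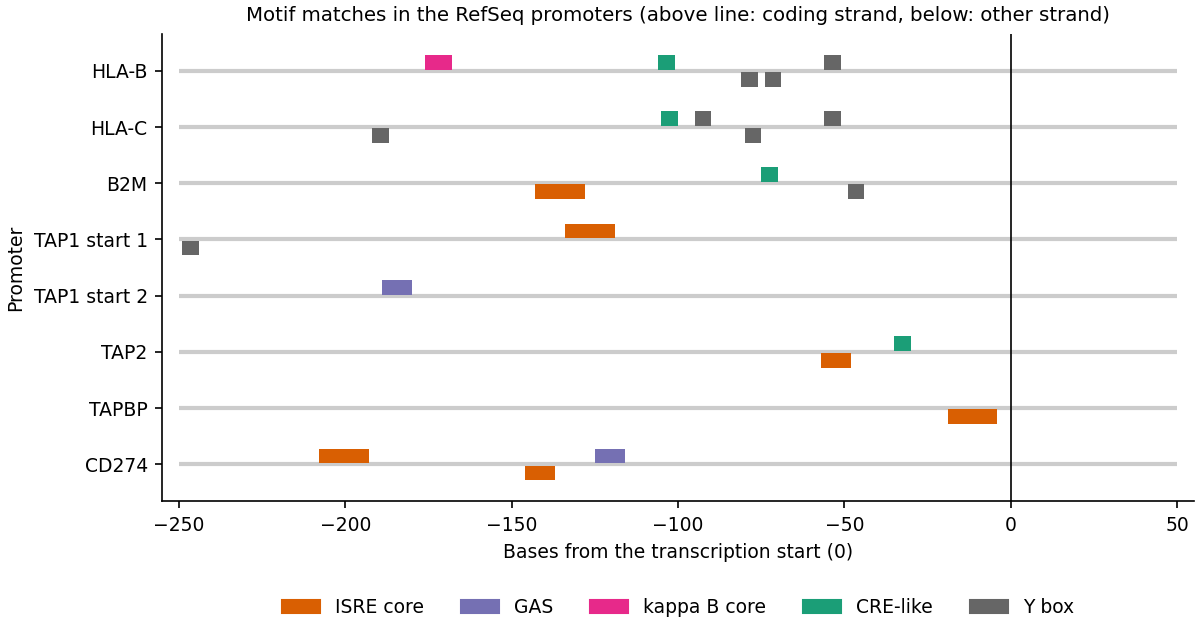
Motif matches in the 8 RefSeq promoter windows of 7 genes. The horizontal axis gives bases from the transcription start, each grey line is a window of 250 bases before to 50 bases after it, and each box is a match coloured by motif, above the line on the coding strand and below it on the other. TGACG and CCAAT stand together in *HLA-B*, *HLA-C* and *B2M*, and TTTCNNTTT in *B2M*, *TAP1*, *TAP2*, *TAPBP* and *CD274*.

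On GRCh37, the build of the files, 6 of the genes lie in the MHC on chromosome 6: *HLA-E* (ENSG00000204592.5, 30457286 to 30461971), *HLA-C* (ENSG00000204525.10, 31236526 to 31239907), *HLA-B* (ENSG00000234745.5, 31321649 to 31334844), *TAP2* (ENSG00000204267.9, 32789610 to 32806516), *TAP1* (ENSG00000168394.9, 32812986 to 32821593) and *TAPBP* (ENSG00000231925.7, 33267471 to 33282061). *CD274* (ENSG00000120217.9) lies on chromosome 9 from 5450503 to 5470566, *B2M* (ENSG00000166710.13) on chromosome 15 from 45003556 to 45011049 and *NLRC5* (ENSG00000140853.11) on chromosome 16 from 57023397 to 57117443. These positions, and the overlaps and transcript lengths below, come from a later GENCODE annotation lifted to GRCh37. Identifiers were matched to it without their version, so gene ends can differ from those behind the FPKM values. *PSMB9*, which encodes an immunoproteasome subunit, starts on the opposite strand 488 bases from the upstream *TAP1* start in RefSeq.

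Tests below are limma's, with Benjamini-Hochberg adjusted p-values over all genes tested, SE is the standard error of a log2 difference, and "called" means an adjusted p under 0.05. Levels are FPKM, fragments scaled to transcript length and library size as the authors estimated them. Sums of FPKM differed by at most 1.18-fold between libraries, and 12515 to 13573 genes a library had an FPKM of at least 1. Counts per library were not used, so depth was known only from the authors' mean normalised counts, which summed to 13786938 in ABC1 and 13957320 in HCC4006. Duplicates correlated across genes with a Pearson's r of 0.992 to 0.995 on the log2 scale. Replicate 1 of the ABC1 DEM group had the highest FPKM sum (737534). Its 10 highest genes held 18.1% of that sum, against 13.9 to 14.3% in the other ABC1 libraries and 14.7 to 18.1% in those of HCC4006. All 7 epithelial markers had a mean of at least 1 FPKM in HCC4006 and 5 of 7 in ABC1, where the lung adenocarcinoma markers *NKX2-1* and *NAPSA* averaged 0.659 and 0.460 FPKM. The leukocyte marker *PTPRC* averaged 0.0132 FPKM in ABC1 and 0.0592 in HCC4006. The summed level of the 7 leukocyte markers was nevertheless 2.22 to 3.24 FPKM in ABC1 and 97.8 to 111 FPKM in HCC4006, through *CD68* and *LCP1*, which tumour cells can also express; by the authors' mean normalised counts *CD68* stood at 0.398 CPM in HCC4006 (the line's mean normalised counts scaled to a common total). The part of these markers in the gaps between the lines was not tested.

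DEM had acted in both lines. *HMOX1*, which encodes haem oxygenase 1, rose from 17.3 and 20.1 to 182 and 174 FPKM in ABC1 and from 5.59 and 5.89 to 57.4 and 55.4 FPKM in HCC4006. *NQO1* and *GCLM*, standard NRF2 targets of quinone reduction and glutathione synthesis, were also called upregulated in both lines, with log2 differences of 1.59 and 1.61 in ABC1 and of 0.89 and 2.15 in HCC4006 (adjusted p from 0.000426 to 0.0422). The reference genes *GAPDH* and *ACTB* differed by -0.22 to 0.16 on the log2 scale between DEM and vehicle.

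Without DEM, the lines differed in most of these genes. HCC4006 held more RNA of 7 of the 9 genes than ABC1, with gaps from 1.32-fold for *TAPBP* to 14.7-fold for *CD274* on the log2(FPKM + 1) scale. *NLRC5* is in this count although it averaged under 1 FPKM in ABC1. *HLA-C* did not differ detectably, and *TAP2* was lower in HCC4006 by FPKM but not by the authors' normalised counts. In RNA of whole cultures, fewer cells that express a gene and less RNA per cell cannot be told apart.

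*HLA-B* had 10.0 and 10.5 FPKM in the vehicle libraries of ABC1 and 159 and 157 FPKM in those of HCC4006. *HLA-C* had 444 and 528 FPKM in ABC1 and 519 and 485 FPKM in HCC4006. *HLA-E* had 43.7 and 46.8 FPKM in ABC1 and 129 and 125 FPKM in HCC4006. So *HLA-B* and *HLA-E* were high in both HCC4006 libraries with no overlap, while the *HLA-C* values of the lines overlapped. The difference, HCC4006 minus ABC1 on the log2(FPKM + 1) scale, was 3.82 for *HLA-B* (SE 0.08, limma adjusted p = 3.4e-08) and 1.47 for *HLA-E* (SE 0.08, adjusted p = 3.6e-06). For *HLA-C* it was 0.05 with a 95% confidence interval from -0.23 to 0.33 (limma adjusted p = 0.718). The ratio of *HLA-C* to *HLA-B* FPKM was 44.2 to 52.4 in the 4 ABC1 libraries and 3.10 to 3.50 in the 4 HCC4006 libraries, so its ranges lay far apart.

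*B2M*, the light chain that every class I heavy chain needs, had 467 and 401 FPKM in the ABC1 vehicle libraries. In HCC4006 it had 2049.6 and 2287 FPKM, far above the ABC1 libraries. The log2 difference was 2.32 (SE 0.15, limma adjusted p = 7.2e-06).

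Of the loading genes, *TAP1* and *TAPBP* were higher in HCC4006, and the direction of *TAP2* depended on the scale. *TAP1* had 3.11 and 3.44 FPKM in ABC1 and 11.9 and 11.6 FPKM in HCC4006. *TAPBP* had 74.6 and 82.6 FPKM in ABC1 and 110.1 and 98.1 FPKM in HCC4006. Both were higher in HCC4006 with no overlap, by 1.58 for *TAP1* (SE 0.16, limma adjusted p = 8.6e-05) and by 0.40 for *TAPBP* (SE 0.11, adjusted p = 0.0136) on the log2 scale. Without replicate 0 of either vehicle group *TAPBP* was no longer called (adjusted p = 0.0748 without that of ABC1 and 0.0981 without that of HCC4006).

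*TAP2* was lower in HCC4006 by FPKM, with 45.0 and 41.5 in ABC1 and 30.1 and 20.9 in HCC4006. The 4 values did not overlap and the log2 difference was -0.76 (SE 0.20, limma adjusted p = 0.00997), but it was not called without replicate 0 of the ABC1 vehicle group (adjusted p = 0.0535) or replicate 1 of the HCC4006 vehicle group (adjusted p = 0.0684). The direction depended on the scale. Mean FPKM over the 4 libraries of a line was 1.67-fold higher in ABC1, while the authors' mean of normalised counts, brought to CPM of the line, was 1.82-fold higher in HCC4006 (10.9 in ABC1 and 19.7 in HCC4006). The length that links both scales was 0.298 kb in ABC1 and 0.906 kb in HCC4006, whereas the annotated *TAP2* transcripts span 849 to 6194 bases. Of 11344 genes measured on both scales, 0.599% had a gap between the scales at least as large, and the median gap was 0.0671 on the log2 scale. A gene on the same strand, ENSG00000250264, covers all of *TAP2*, and 34.9% of the 80-base words of the canonical *TAP2* transcript also occur in other genes. How reads were shared between overlapping genes was not tested, so neither line can be named as the one with more *TAP2* RNA.

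*NLRC5*, the class I transactivator, was close to the limit of 1 FPKM in ABC1, with 0.807 and 1.03 in the vehicle libraries. In HCC4006 it had 14.8 and 15.8 FPKM. *CD274* had 0.824 and 2.23 FPKM in ABC1 and 31.3 and 38.2 FPKM in HCC4006. Both genes were high in HCC4006 with no overlap, by 3.09 (SE 0.13, limma adjusted p = 7.0e-07) and 3.87 (SE 0.27, adjusted p = 1.1e-05) on the log2 scale. *NLRC5* averaged 0.863 FPKM in ABC1 and passed the minimum of 1 FPKM over the 8 libraries only through HCC4006. Its p-value between the lines therefore adds no weight to the levels. By the ratio of mean FPKM over 4 libraries both were 22.8-fold higher in HCC4006, and by the authors' mean normalised counts in CPM 45.3-fold for *NLRC5* and 39.0-fold for *CD274*, so the direction held on both scales and the size did not.

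Of all 13682 genes tested between the lines, 36.8% were called higher in HCC4006 and 30.2% lower, so a call between the lines was common. The median log2 difference over all genes was 0.07, and over the 9 genes it was 1.58.

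**Figure D2:**
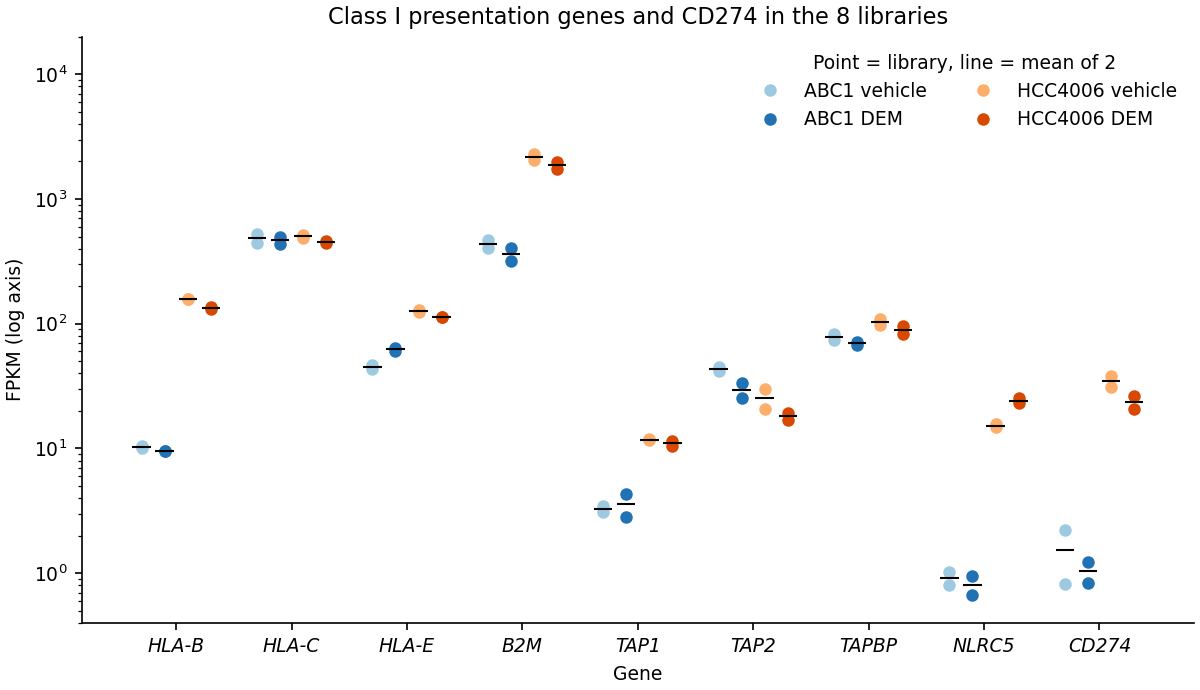
FPKM of the 9 genes in the 8 libraries on a log axis. Each point is a library, coloured by line and treatment, and the short line is the mean of the 2 libraries of a group. *HLA-B*, *B2M*, *NLRC5* and *CD274* lie apart by line, *HLA-C* sits between 436 and 528 FPKM in all 8 libraries, and *TAP2* is lower in HCC4006 by FPKM.

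**Figure D3:**
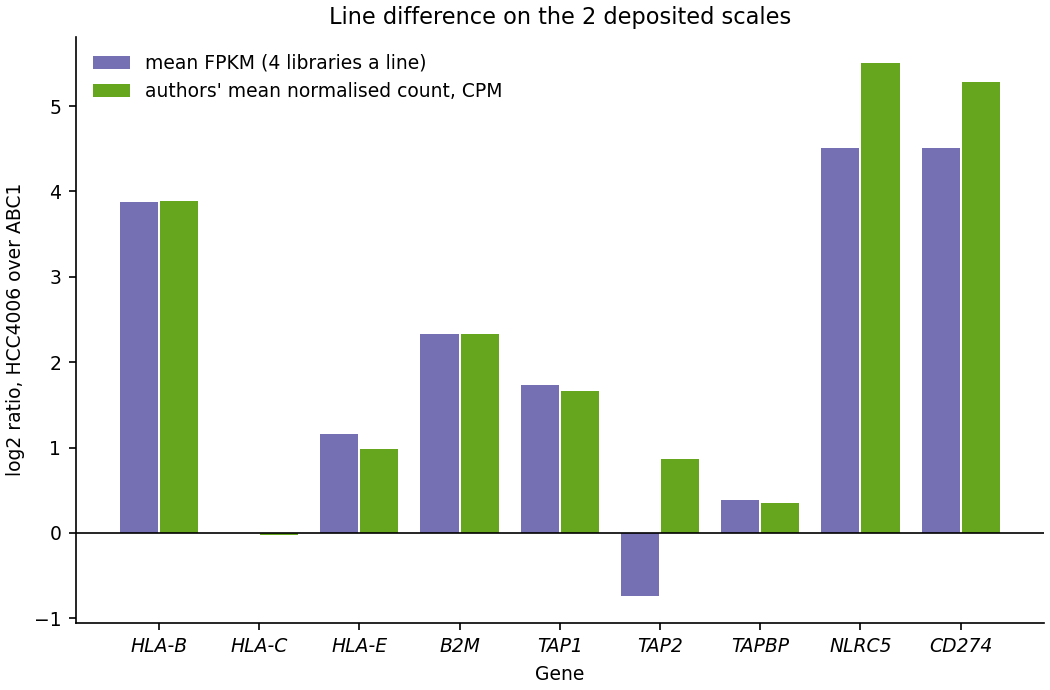
Log2 ratio of HCC4006 over ABC1 for the 9 genes, from the mean FPKM of 4 libraries a line (violet) and from the authors' mean normalised counts brought to CPM of the line (green); bars start at 0 and no error is defined for the authors' means. The bars differ in sign for *TAP2* (-0.74 and 0.86) and in height for *NLRC5* (4.51 and 5.50) and *CD274* (4.51 and 5.29).

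Ordered by FPKM, *HLA-C* and *B2M* led in ABC1 with vehicle and their ranges overlapped, followed by *TAPBP*, *HLA-E* and *TAP2*, of which the last pair overlapped, then *HLA-B*, *TAP1*, *CD274* and *NLRC5*, of which the last pair overlapped. In HCC4006 with vehicle the order was *B2M*, *HLA-C*, *HLA-B*, *HLA-E*, *TAPBP*, *CD274*, *TAP2*, *NLRC5* and *TAP1*, with no overlap between neighbours. With DEM the last places in HCC4006 changed, because *NLRC5* (25.2 and 23.1 FPKM) came to overlap *CD274* (20.5 and 26.6 FPKM).

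In HCC4006, 2 of the 9 genes were called after DEM. *NLRC5* rose 1.55-fold and *HLA-B* fell to 0.843 of its vehicle level, both past the test, and *CD274* stood at 0.684 of its vehicle level just outside it (folds on the log2(FPKM + 1) scale). Each of the other 6 genes had both DEM libraries below both vehicle libraries without passing the test.

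*NLRC5* in HCC4006 went from 14.8 and 15.8 FPKM with vehicle to 25.2 and 23.1 FPKM with DEM. Both DEM libraries were higher. The log2 difference was 0.63 (SE 0.09, limma adjusted p = 0.0109). With 1 library left out at a time the difference stayed between 0.57 and 0.69, and it was called only without replicate 1 of the DEM group (adjusted p = 0.0391); the other adjusted p-values were 0.0587 without vehicle replicate 0, 0.0585 without DEM replicate 0 and 0.0514 without vehicle replicate 1.

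The heavy chains in HCC4006 had lower values with DEM. *HLA-B* had 159 and 157 FPKM with vehicle and 130.5 and 135 FPKM with DEM, a log2 difference of -0.25 (SE 0.06, limma adjusted p = 0.0444). It was not called with any 1 library left out (adjusted p = 0.198 without vehicle replicate 0, 0.132 without DEM replicate 0, 0.177 without vehicle replicate 1 and 0.0889 without DEM replicate 1), nor with median-of-ratios scaling (adjusted p = 0.0528). *HLA-C* had 519 and 485 FPKM with vehicle and 457 and 444 FPKM with DEM. *HLA-E* had 129 and 125 FPKM with vehicle and 114 and 113 FPKM with DEM. In both, the DEM libraries were the lower ones, with log2 differences of -0.16 and -0.16 that were not called (limma adjusted p = 0.136 and 0.129).

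*B2M* in HCC4006 had 2049.6 and 2287 FPKM with vehicle and 1727 and 1992 FPKM with DEM. *TAP1* had 11.9 and 11.6 FPKM with vehicle and 10.5 and 11.5 FPKM with DEM. Both DEM libraries of *B2M* were low, whereas 1 DEM library of *TAP1* came close to the vehicle libraries. *TAP2*, which pairs with TAP1 in the transporter, had 30.1 and 20.9 FPKM with vehicle and 16.8 and 19.4 FPKM with DEM. The limit given above for *TAP2*, that the sharing of reads between overlapping genes was not tested, holds for its DEM differences too. It also holds for the place of *TAP2* in the counts of genes below. *TAPBP* was at 110.1 and 98.1 FPKM with vehicle and at 95.3 and 83.3 FPKM with DEM. The DEM libraries lay below the vehicle libraries in each of these 4 genes, narrowly so for *TAP1*, and none was called, with log2 differences of -0.22, -0.09, -0.45 and -0.22 in this order (limma adjusted p = 0.141, 0.577, 0.123 and 0.159).

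*CD274* in HCC4006 had 31.3 and 38.2 FPKM with vehicle and 20.5 and 26.6 FPKM with DEM. The DEM libraries were the lower ones. The log2 difference was -0.55 (SE 0.15, 95% confidence interval from -0.92 to -0.18), with an adjusted p of 0.0545 by limma, so *CD274* was not called. Replicate 1 was the higher library of each group. The adjusted p was 0.0362 with a minimum of 5 FPKM, 0.306 with no FPKM minimum, and 0.0560 to 0.210 with 1 library left out.

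For all 13542 genes tested in HCC4006, 8.45% were called upregulated and 10.7% downregulated, against 1 and 1 of the 9 genes. Both DEM libraries were higher than both vehicle libraries in 29.3% of all genes and in 1 of the 9, and lower in 35.3% of all genes and in 8 of the 9. The median log2 difference was -0.03 over all genes and -0.22 over the 9. An unadjusted p under 0.05 was given by 5 of the 9 and by 4985 of all genes tested. For 1 gene, 2 libraries a group allow an exact two-sided permutation p of 0.333 at the lowest, so the calls rest on limma's spread shared across genes.

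In ABC1, none of the 8 genes that could be tested was called. *NLRC5*, at 0.807 and 1.03 FPKM with vehicle and 0.944 and 0.675 FPKM with DEM, averaged under the minimum of 1 FPKM and was not tested. Of the 8 genes, 2 had an unadjusted p under 0.05, *HLA-E* and *TAP2*, as had 2771 of all 12635 genes tested in this line.

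*HLA-E* in ABC1 had 43.7 and 46.8 FPKM with vehicle and 60.8 and 64.5 FPKM with DEM. It was the single gene of the group with both DEM libraries above both vehicle libraries in ABC1, the reverse of its order in HCC4006. The log2 difference was 0.46 (SE 0.12, 95% confidence interval from 0.16 to 0.76, limma adjusted p = 0.116), so it was not called in the ABC1 libraries alone. In 1 model of all 8 libraries, which shares the spread of both lines, the adjusted p was 0.0173. The other heavy chains gave no call: *HLA-B* had 10.0 and 10.5 FPKM with vehicle and 9.57 and 9.51 FPKM with DEM. *HLA-C* had 444 and 528 FPKM with vehicle and 436 and 498 FPKM with DEM.

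*TAP2* in ABC1 had 45.0 and 41.5 FPKM with vehicle and 25.4 and 33.8 FPKM with DEM. Its DEM libraries lay below its vehicle libraries, with a log2 difference of -0.55 (SE 0.17, limma adjusted p = 0.151). This FPKM difference carries the limit of overlapping genes given for *TAP2* above. *TAPBP* had 74.6 and 82.6 FPKM with vehicle and 67.7 and 71.7 FPKM with DEM. *B2M* had 467 and 401 FPKM with vehicle and 407 and 320.4 FPKM with DEM. *TAP1* had 3.11 and 3.44 FPKM with vehicle and 2.83 and 4.32 FPKM with DEM. The *B2M* and *TAP1* libraries overlapped between the treatments, and the log2 differences of *TAPBP*, *B2M* and *TAP1* were -0.17, -0.26 and 0.08. *CD274* in ABC1 had 0.824 and 2.23 FPKM with vehicle and 0.832 and 1.23 FPKM with DEM. The vehicle duplicates of *CD274* thus differed by more than the treatments did, and the 95% confidence interval of its log2 difference ran from -1.09 to 0.56.

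Of 12635 genes tested in ABC1, 0.768% were called upregulated and 0.435% downregulated, so calls were rare in this line in the fit without a replicate block. Both DEM libraries were higher in 25.5% of all genes and in 1 of the 8 (*HLA-E*), and lower in 28.2% of all genes and in 3 of the 8 (*HLA-B*, *TAP2* and *TAPBP*). The median log2 difference was -0.02 over all genes and -0.13 over the 8. The median standard error over all genes was 0.17 in ABC1 and 0.12 in HCC4006, and the smallest difference called was 0.80 in ABC1 and 0.22 in HCC4006, so the differences of *NLRC5* and *HLA-B* in HCC4006 were smaller than any called in ABC1.

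**Figure D4:**
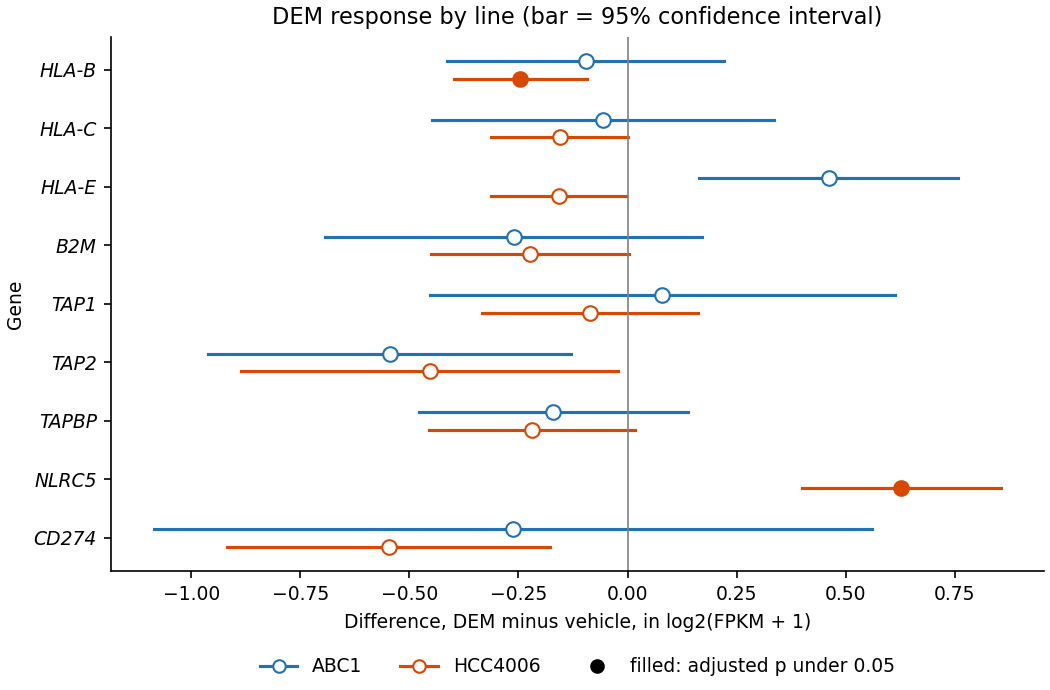
DEM response of the 9 genes in each line, as the difference DEM minus vehicle in log2(FPKM + 1), with bars for the 95% confidence interval of limma; filled points have an adjusted p under 0.05, and *NLRC5* was not tested in ABC1. In HCC4006 *NLRC5* stands at 0.63 and the other 8 genes lie below 0, and the bars of ABC1 are the wider ones for 7 of the 8 genes tested in both lines.

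The difference in response between the lines was tested in 1 model of the 8 libraries. None of the 9 genes was called (0.307% of 13682 genes were called higher and 0.329% lower in HCC4006 relative to ABC1). An unadjusted p under 0.05 was given by 2 of the 9 and by 2068 of all genes tested. The response of *HLA-E* was 0.62 lower in HCC4006 than in ABC1 on the log2 scale (-0.62, SE 0.12, limma adjusted p = 0.0785). With median-of-ratios scaling its adjusted p was 0.0478 and with no FPKM minimum 0.0342. The response of *NLRC5* was 0.71 higher in HCC4006 (SE 0.18, limma adjusted p = 0.140). *NLRC5* lay near or under 1 FPKM in ABC1, where a pseudocount of 1 compresses any response, and 0.63 of this difference is the HCC4006 response itself, so it does not compare the responses of the lines on equal terms. For *CD274* the difference was -0.28 with a 95% confidence interval from -1.19 to 0.62, which includes 0.

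The other genes of the pathway were taken from 7 lists. Their calls in HCC4006 are to be read against 8.45% upregulated and 10.7% downregulated over all genes tested. The 1 or 2 calls in each of the first 5 lists, of 7 to 16 genes tested, were close to these shares. In peptide supply, 2 of 12 genes were called downregulated in HCC4006 and 0 upregulated, and none of the 10 tested was called in ABC1. Both were immunoproteasome subunits. *PSMB9*, whose start faces that of *TAP1*, went from 12.7 and 12.6 FPKM to 5.85 and 6.95 FPKM (log2 difference -0.89, SE 0.12, limma adjusted p = 0.00781), while *TAP1* differed by -0.09 (adjusted p = 0.577). As annotated, *PSMB9* overlaps *TAP1* over 8608 bases on the opposite strand, and whether reads were assigned by strand was not tested. *PSMB8* went from 18.9 and 19.0 FPKM to 11.1 and 12.7 FPKM (log2 difference -0.63, limma adjusted p = 0.0135), and was listed at or next to 0 in all 4 ABC1 libraries. In ABC1, *PSMB9* had 5.49 and 6.11 FPKM with vehicle and 2.17 and 3.22 FPKM with DEM, with an adjusted p of 0.0926. With 1 library left out at a time, *PSMB9* was called in each of the 4 fits of HCC4006, with adjusted p-values from 0.0285 to 0.0473.

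In loading chaperones, 1 of 7 genes was called upregulated and 1 downregulated in HCC4006. *CANX*, the membrane chaperone of new heavy chains, differed by 0.29 (limma adjusted p = 0.0298) and *CALR*, its soluble relative in the loading complex, by -0.26 (adjusted p = 0.0312). *TAPBPL*, a tapasin-related peptide editor, had 16.0 and 14.8 FPKM with vehicle and 13.1 and 11.4 FPKM with DEM in HCC4006 and was not called (adjusted p = 0.0970), and it averaged 0.377 FPKM in ABC1. In class I-like heavy chains, 1 of the 8 tested was called in HCC4006, *HFE*, a regulator of iron uptake, at -0.59 (limma adjusted p = 0.0461). Of the 6 tested in ABC1, none was called.

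In class I transcription control, 2 of 16 genes tested were called downregulated in HCC4006 and none upregulated. *NFYA*, a subunit of the Y-box factor, differed by -0.48 (limma adjusted p = 0.0468) and *ATF1*, a CREB-family factor, by -0.29 (adjusted p = 0.0499). *IRF1* had 20.3 and 19.6 FPKM with vehicle and 16.7 and 17.6 FPKM with DEM, and *RFX5*, which binds the class I module, 12.0 and 14.5 FPKM and then 9.32 and 10.9 FPKM. The DEM libraries of both lay below the vehicle libraries in HCC4006 and neither was called (limma adjusted p = 0.147 and 0.113). Of the 16 genes, 5 had a log2 difference above 0 and 11 below, and *CREB1* and *NFYB*, of the CREB and Y-box families and named after their values were seen, stood at 0.41 and 0.26 without being called. In interferon receptors and signalling, 1 of 10 was called in HCC4006: *IFNAR2*, a type I interferon receptor chain, went from 11.4 and 8.73 FPKM to 3.97 and 5.32 FPKM (log2 difference -0.97, limma adjusted p = 0.0190). In neither of these lists was a gene called in ABC1, where 16 and 10 were tested.

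Of the class II pathway, which serves CD4 T cells, 3 of 9 genes could be tested in HCC4006 and 1 in ABC1. *CD74*, the invariant chain, had 95.2 and 96.0 FPKM with vehicle and 78.0 and 74.9 FPKM with DEM in HCC4006 (log2 difference -0.32, limma adjusted p = 0.0267) and at most 0.151 FPKM in ABC1.

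Among checkpoint ligands and genes of PD-L1 stability, 2 of 11 tested were called upregulated and 3 downregulated in HCC4006. *PDCD1LG2*, which encodes the second PD-1 ligand PD-L2, went from 1.84 and 1.70 FPKM to 0.292 and 0.415 FPKM (log2 difference -1.03, SE 0.19, limma adjusted p = 0.0185). It passed the minimum of 1 FPKM only through the vehicle libraries, so a gene with these levels had to differ to be tested, and its call carries no weight in the count of the list. Both DEM libraries of *PDCD1LG2* were low, and ABC1 had under 0.0012 FPKM of it in every library. *LGALS9*, which encodes galectin 9, went from 24.1 and 23.3 FPKM to 10.8 and 13.2 FPKM (log2 difference -0.93, limma adjusted p = 0.00691). *VTCN1*, which encodes B7-H4, went from 15.1 and 16.8 FPKM to 9.63 and 11.5 FPKM in HCC4006 (log2 difference -0.55, limma adjusted p = 0.0304) and from 10.6 and 9.31 FPKM to 2.37 and 2.52 FPKM in ABC1. In ABC1 the log2 difference of *VTCN1* was -1.67 (SE 0.15, limma adjusted p = 0.0221), the 1 call in ABC1 over the 7 lists. It was lost without replicate 0 or 1 of the ABC1 vehicle group (adjusted p = 0.212 and 0.142).

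The upregulated genes of that list were *CMTM4*, which keeps PD-L1 protein from degradation, from 20.9 and 22.8 FPKM to 33.7 and 33.5 FPKM (log2 difference 0.60, limma adjusted p = 0.00950), and *PVR*, the ligand of TIGIT, at 0.30 (adjusted p = 0.0411), named after its value was seen. *CMTM6*, the main partner of PD-L1 at the membrane, had 13.9 and 14.4 FPKM with vehicle and 10.9 and 12.4 FPKM with DEM in HCC4006 and was not called (adjusted p = 0.134). In ABC1 *CMTM6* had 36.9 and 40.1 FPKM with vehicle and 39.3 and 38.4 FPKM with DEM, so its treatments overlapped. Protein was not measured in these libraries. With 1 HCC4006 library left out at a time, *LGALS9* was called in each of the 4 fits (highest adjusted p = 0.0383). *CMTM4* and *IFNAR2* were called in 2 of 4, without replicate 1 of either group, and *PSMB8* in 1 of 4, without DEM replicate 1, with highest adjusted p-values of 0.0549, 0.0831 and 0.0735. *CANX*, *CALR*, *HFE*, *NFYA*, *ATF1*, *CD74* and *VTCN1* were called in none of the 4, and *PDCD1LG2* in neither of the 2 fits in which it still averaged at least 1 FPKM.

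**Figure D5:**
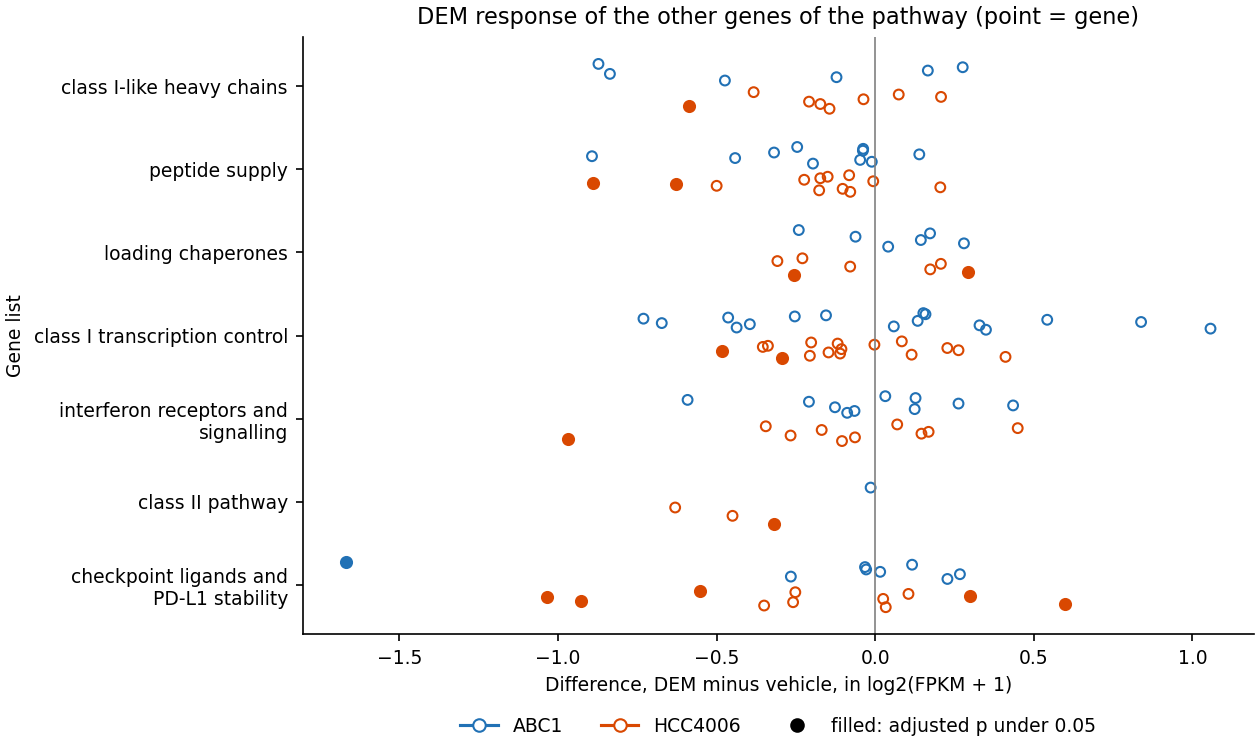
DEM response of the other genes of the pathway by list, as the difference DEM minus vehicle in log2(FPKM + 1); each point is a gene tested, blue in ABC1 and orange in HCC4006, and filled where the adjusted p is under 0.05. The 1 filled point of ABC1 is *VTCN1* at -1.67, and the leftmost filled points of HCC4006 are *PDCD1LG2* at -1.03, *IFNAR2* at -0.97, *LGALS9* at -0.93 and *PSMB9* at -0.89.

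The genes whose pattern over the 8 libraries was most like that of 4 of the members were found by the root mean square distance of log2(FPKM + 1), each gene centred on its own mean. For *NLRC5* they were *IRF5* (distance 0.104) and ENSG00000258130 (0.107). *IRF5*, an interferon regulatory factor, averaged 9.38 FPKM with vehicle and 14.0 FPKM with DEM in HCC4006 and under 0.1 FPKM in ABC1. For *CD274* they were *PLAUR* (0.164), *TNFSF13* (0.222) and *PJA1* (0.235). *PLAUR*, the urokinase receptor, averaged 118 FPKM with vehicle and 89.7 FPKM with DEM in HCC4006. For *HLA-B* they were *SECTM1* (0.0792), *SFTA3* (0.0793) and *PGM5* (0.0803), and for *TAP1* they were *GPR39* (0.0687), *MBNL2* (0.0726) and *MZF1-AS1* (0.0772). The pattern of all 4 members is mainly the gap between the lines, which many genes share, since 36.8% of all genes were called higher in HCC4006.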

How the data were processed

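The members and gene lists were chosen with earlier results of these data known. Strand-specific libraries from poly(A)-selected RNA of both lines were analysed, 8 in all. FPKM values per library were deposited by the authors, per the labels with bcl2fastq 2.15.0, cutadapt 1.15, STAR 2.5.3a, Cuffnorm and HTSeq on hg19 (GRCh37.p13), whereas the study's methods name TopHat and Cufflinks, so the aligner behind the values was not settled. The authors also deposited comparison tables, from which only the base mean was taken, a signal column that holds the authors' mean of normalised counts over a line. Their columns of fold changes and p-values, which hold the authors' own DESeq2 comparison, were not used.

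Within a line, the DEM effect was fitted with limma 3.58.1 in R 4.3.3, using log2(FPKM + 1), empirical Bayes with a trend on the mean, and the genes that averaged 1 FPKM or more over its 4 libraries. The lines and their responses were compared in 1 model of all 8 libraries. A call was a Benjamini-Hochberg adjusted p under 0.05 over all genes tested, with no minimum fold. The pseudocount understates the fold of genes with a low FPKM. Depth per library is unknown, so no counting interval is given. Genes were named by rule: the members, the list genes called in at least 1 line (at most the 4 with the smallest adjusted p per list), partners of members, and 3 nearest genes for 4 members. Some genes that these rules name are not reported here. Symbols were found for 55534 of 57815 identifiers. Alternatives were another pseudocount, FPKM minimum, scaling and variance model, the replicate number as a block, and each library left out. Promoters are those of RefSeq, aligned with Biopython.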

Additional observations from a re-analysis of the deposited data

How the results depend on the processing

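*HLA-B*, *HLA-E*, *B2M*, *TAP1*, *NLRC5* and *CD274* were called higher in the vehicle libraries of HCC4006 under all 11 alternatives, and *TAPBP* under 9 of 11. Wherever an FPKM minimum was set, *NLRC5* passed it only through HCC4006. The *TAP2* call was lost with no FPKM minimum (0 members lower) and 0 to 1 members were lower with a library left out. In HCC4006, 1 member was called upregulated by DEM and 1 downregulated: with no FPKM minimum these were 0 and 0, and 0 members were downregulated with median-of-ratios scaling, without the mean-variance trend and in 1 model of all 8 libraries, but 2 with a minimum of 5 FPKM, which added *CD274*. With a library left out, 0 to 1 members were upregulated and 0 downregulated. In ABC1, 0 members were called, except that *HLA-E* was 1 upregulated member in 1 model of all 8 libraries. For the difference in response, *HLA-E* was 1 member called with no FPKM minimum and with median-of-ratios scaling. Over all genes in ABC1 (97 up, 55 down), the counts were 0 and 0 with no FPKM minimum, 183 and 115 with median-of-ratios scaling, 27 and 6 without the trend, 779 and 788 in 1 model of all 8 libraries, 94 down with a minimum of 5 FPKM, and 10 to 51 up and 8 to 18 down with a library left out. In HCC4006 (1144 up, 1447 down) they were 177 and 193 with no FPKM minimum, and 290 to 464 up and 344 to 564 down with a library left out. For the difference (42 and 45) they were 11 and 9 with a pseudocount of 0.1, 173 and 230 with no FPKM minimum, and 0 to 17 and 2 to 27 with a library left out. The cause of these changes was not tested. A fit with a library left out also has fewer samples.

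Uncalled differences near 0 changed sign with a library left out: in ABC1 *HLA-C* ran from -0.18 to 0.0685, *TAP1* from -0.16 to 0.32, *CALR* from -0.10 to 0.18 and *CMTM6* from -0.0432 to 0.0748. The difference in response ran from -0.13 to 0.21 for *B2M*, -0.70 to 0.13 for *CD274*, -0.22 to 0.0241 for *HLA-C*, -0.40 to 0.0704 for *TAP1*, -0.16 to 0.34 for *TAP2* and -0.14 to 0.0468 for *TAPBP*. *HLA-C* between the lines ran from -0.0729 to 0.18.

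With the replicate number as a block, 1 member was called upregulated in ABC1 (*HLA-E*) and 1 downregulated (*TAP2*), 4 were downregulated in HCC4006 (*HLA-B*, *B2M*, *TAPBP* and *CD274*), and all genes called were 1185 up and 1163 down in ABC1, 1457 up and 1847 down of 13542 in HCC4006, and 5 and 8 for the difference. The labels do not say what same-numbered libraries share beyond the number, and the main fits leave the block out. The deviations of same-numbered libraries correlated with a Pearson's r of 0.258 in ABC1 and 0.0544 in HCC4006, each from 1 pair of deviations.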
